A study of Mus musculus with 8 samples.

Results

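The complement genes encode a plasma protease cascade, its membrane and fluid-phase inhibitors and its receptors. A list of 36 of them was looked up by symbol in the annotation of the array probes, and 33 had a probe, out of 20289 named genes in all. Where a gene had several probes, the brightest on average stands for it. No value is given for Cfd and Clu, which are not analysed here. C1s was not found under that symbol, and its value under the current symbol C1s1 is given beside the classical pathway but not counted.

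Complement is activated by 3 routes that meet at the cleavage of C3. In the classical route C1q, carrying the proteases C1r and C1s, recognises antibody or other bound ligands and cleaves C4 and C2. In the lectin route mannose-binding lectins, ficolins and collectins carry the MASP proteases to the same substrates. The alternative route amplifies C3 cleavage through factor B, factor D and properdin. Cleavage of C5 then starts assembly of the membrane attack complex from C6 to C9. Hepatocytes make most of the circulating components, whereas C1q and properdin come largely from macrophages and other leukocytes.

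The arrays held total RNA of isolated primary hepatocytes of male C57Bl/6 mice, in 2 diet groups. 4 arrays (numbers 1, 2, 3 and 5) came from mice on normal chow, and 4 (numbers 8, 10, 11 and 12) from mice on a high fat diet, HFD. All cells, of either diet, were plated in supplemented M199 medium that held 10% serum, 1.5 nM EGF, 400 nM dexamethasone and insulin at 100 nM. Insulin was lowered to 10 nM at a medium change after 4 h, and the cells were harvested 24 h after that. The values therefore describe cultured cells after a shared hormone treatment and not fresh liver. The age of the mice, the length of the diets, the number of mice behind an array and the slide layout are not stated in the labels, so the p-values measure the spread between these arrays.

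Levels are the deposited log2 values, and a difference is HFD minus chow on that scale with its standard error (SE), a 95% confidence interval where given, and a Benjamini-Hochberg adjusted p over all 20289 genes from limma. Means are ± SD with n = 4 arrays a diet. The median of all probes was 7.51. A gene is called dim below when its mean over the arrays lay at or under 7.99, the upper quartile of all probe means, where a difference in RNA is understated. Of the 33 genes 21 were brighter than that and 12 were dim.

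The third chow array stood apart, correlating with the other arrays at no more than r = 0.952 across probes, against a best correlation of 0.995 or more for each of the others. Of 15 hepatocyte marker genes 12 were bright and 1 rose, Cps1, with a list median difference of 0.02. Ttr, named after its value was seen, differed by -0.26 (adjusted p = 0.462) and passed without chow 5 (-0.39, adjusted p = 0.0237). Trf, Apob and Hp, named after their values were seen, read 12.13, 9.66 and 10.68 on chow 3, each below every other array. Their differences of 0.72, 0.37 and 0.67 did not pass, and without chow 3 they were 0.07, -0.35 and 0.32. The single albumin probe was weak (8.37 ± 0.29 in chow), and Tat, Pck1 and Fgb, named after their values were seen, were dim. In HFD cultures 7 of 21 markers of macrophages and Kupffer cells fell and none rose, where 2.57% of all genes fell. Of the 21 markers 11 were dim. When single arrays were left out 6 to 11 fell, with 11 without chow 5. The values of all 21, summed after undoing the log2, gave 10339 to 11462 on the chow arrays and 5969 to 6815 on the HFD arrays, without overlap. This sum is linear signal only if the scale is plain log2, and the brightest markers weigh most in it. In bulk RNA, fewer cells of a type and less RNA per cell cannot be told apart.

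Among the 33 complement genes, ficolin A (Fcna) and the membrane inhibitor Cd55 fell in HFD hepatocyte cultures, and the carboxypeptidase N subunit gene Cpn1 rose. That is 2 genes lower, where 2.57% of all genes were lower, and 1 gene higher, where 1.47% of all genes were higher. The 3 calls make 9.09% of the list against 4.04% of all genes. Among bright genes alone the shares were 9.52% (2 of 21) and 9.60%. At an unadjusted p under 0.05 there were 12 of 33 complement genes (36.4%), against 14.1% of all genes. Among bright genes alone those shares were 52.4% (11 of 21) and 28.7%. The 4 HFD arrays lay on 1 side of all chow arrays in 6 of the 33 (18.2%), against 10.7% of all genes, and among bright genes in 5 of 21 (23.8%), against 20.2%. Of these 5 were lower, as were 6.47% of all genes, and 1 was higher, as were 4.24%. The median difference was 0.00 over the 33 genes and -0.15 over the 21 bright ones, beside 0.00 for all genes and -0.01 for all bright genes. For the 21 it was -0.03 without chow 3 and -0.06 without HFD 8. Without the third chow array the same numbers of complement genes were called, 1 higher and 2 lower, while the share of all genes called was 9.17%, with 4.84% higher and 4.34% lower.

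**Figure D1:**
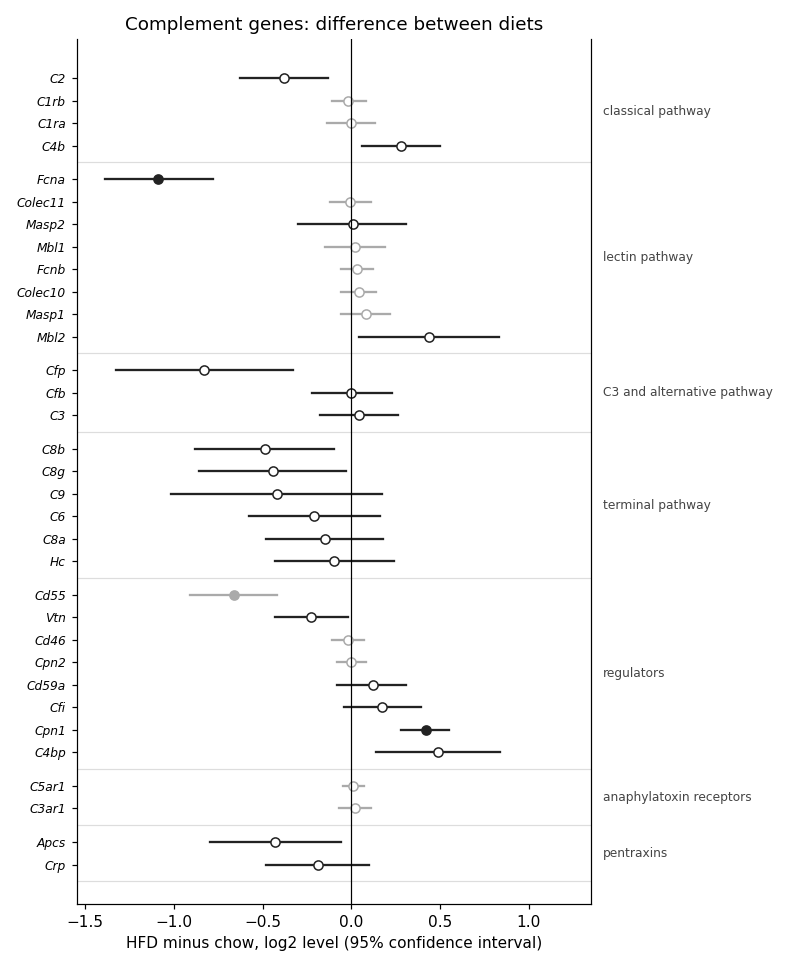
Difference in log2 level, HFD minus chow, of the 33 complement genes grouped by role. Points are the limma estimates with 95% confidence intervals from 4 arrays a diet, filled points passed an adjusted p of 0.05 and grey marks dim genes. Fcna lies farthest to the left at -1.09, and the 6 terminal pathway genes all lie left of 0 with 0 of them filled.

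Cfp, which encodes properdin, C2 and C8b separated the diets without passing the test. Of these C2 had no start region entry, and C8b, which had one, is not shown. The start regions of the 3 called genes and of Cfp are shown, so that each sequence can be read beside its gene's level. They are RefSeq sequences of build GRCm38.p6, 250 bases up to the transcript start, read 5′ to 3′ on the gene's own strand, which is the minus strand for all 4: Fcna at chr2:25627975-25628224, Cfp at chrX:20931556-20931805, Cd55 at chr1:130462745-130462994 and Cpn1 at chr19:43986521-43986770. Capitals mark matches to any of 4 searched motifs.
Fcna: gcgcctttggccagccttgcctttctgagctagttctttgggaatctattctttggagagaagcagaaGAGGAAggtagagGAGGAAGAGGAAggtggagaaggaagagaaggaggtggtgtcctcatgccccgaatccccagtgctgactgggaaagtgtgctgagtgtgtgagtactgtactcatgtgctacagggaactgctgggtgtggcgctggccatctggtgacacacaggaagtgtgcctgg
Cfp: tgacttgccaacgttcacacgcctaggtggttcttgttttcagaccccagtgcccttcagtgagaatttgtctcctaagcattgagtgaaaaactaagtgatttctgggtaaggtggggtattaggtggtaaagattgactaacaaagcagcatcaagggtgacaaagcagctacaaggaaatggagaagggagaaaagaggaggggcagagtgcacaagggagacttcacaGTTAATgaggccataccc
Cd55: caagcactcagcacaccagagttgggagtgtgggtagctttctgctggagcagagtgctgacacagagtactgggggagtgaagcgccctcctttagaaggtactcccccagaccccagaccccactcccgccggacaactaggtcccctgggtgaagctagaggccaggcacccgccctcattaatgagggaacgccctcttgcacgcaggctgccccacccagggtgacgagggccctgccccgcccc
Cpn1: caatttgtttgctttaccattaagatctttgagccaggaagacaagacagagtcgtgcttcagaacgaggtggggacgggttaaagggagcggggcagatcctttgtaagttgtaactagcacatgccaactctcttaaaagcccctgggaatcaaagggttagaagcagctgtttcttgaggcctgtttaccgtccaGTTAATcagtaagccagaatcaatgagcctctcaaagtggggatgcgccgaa

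Both strands were searched for the core of the myeloid factor PU.1 (GAGGAA), the core of the hepatocyte factor HNF1's site (GTTAAT), a C/EBP site (TTGCNNAA) and a TATA box (TATAAA). The Fcna sequence held GAGGAA 3 times, the first beginning at position -182 from the start. Cfp and Cpn1 each held GTTAAT once. No match to the 4 motifs was found in the Cd55 window, and no matches overlapped in these 4 sequences. Over 27025 genes with such a window, GAGGAA occurred in 23.1% and GTTAAT in 6.52%. Of the 27 complement genes with a window, 3 held GAGGAA (11.1%) and 8 held GTTAAT (29.6%), namely C4bp, Hc, C8b, C8a, C1ra, Vtn, Cpn1 and Cfp. TTGCNNAA occurred in 5 of the 27 (9.55% of all genes) and TATAAA in 5 (13.0%). C2, C4b, Cfb, Masp1, Colec10 and Cfi had no entry. A match is a description of letters and not a measured binding site.

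In the classical pathway no gene passed the test. C2, the protease that joins C4b in the C3 convertase, read 10.69, 10.69, 10.80 and 10.56 on chow arrays 1, 2, 3 and 5 and 9.99, 10.50, 10.36 and 10.39 on HFD arrays 8, 10, 11 and 12. Each HFD array was below each chow array, and HFD 8 was the lowest. The difference was -0.38 (SE 0.107, interval -0.63 to -0.13, adjusted p = 0.119), or -0.27 without HFD 8.

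C4b, which encodes the C4 component, read 11.94, 11.87, 11.72 and 12.12 on chow and 12.08, 12.08, 12.27 and 12.34 on HFD arrays. The groups overlapped through chow 5 alone. Its difference was 0.28 (SE 0.095, adjusted p = 0.199). The other 2 C4b probes, both with a mean near 8.1, differed by 0.10 and 0.09. On chow 3 these 2 read 7.43 and 7.42, against 7.97 to 8.57 on the other chow arrays. Their HFD arrays read 7.80 to 8.52, so these 2 differences depend on chow 3. C4b and the neighbouring C4a are nearly identical and can share probe signal, and the brightest probe of C4a, given for that likeness, differed by 0.33 (adjusted p = 0.556), or 0.12 without chow 3. A second C4a probe of similar brightness differed by 0.08.

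The C1r genes C1ra and C1rb, also close copies of each other, were dim, with differences of 0.00 and -0.02 and intervals within -0.14 to 0.13. C1s1, also dim, read 7.88 ± 0.23 in chow and 8.02 ± 0.12 in HFD (0.15, adjusted p = 0.686). Chow 3 was its lowest array at 7.55, and without chow 3 the difference was 0.04. A second C1s1 probe, with a mean of 7.86, differed by 0.28. It read 7.39 on chow 3, 7.72 to 7.90 on the other chow arrays and 7.79 to 8.12 on HFD arrays.

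In the lectin pathway 1 of 8 genes fell and 0 rose. Fcna, a soluble pattern-recognition ficolin that in mice is made in liver and spleen and by macrophages, read 9.33, 9.31, 9.18 and 8.94 on the chow arrays and 7.76, 8.25, 8.29 and 8.12 on the HFD arrays. The lowest chow array lay above the highest HFD array. Its mean of 9.19 ± 0.18 in chow fell to 8.10 ± 0.24 in HFD cells, 2.13-fold lower, with a log2 difference of -1.09 (SE 0.132, interval -1.39 to -0.78, adjusted p = 0.00422). The call held under every alternative run, with an adjusted p of at most 0.0196. Of the 21 macrophage markers counted above 7 were lower on the same HFD arrays, and the part of macrophages in this result was not tested. The other ficolin gene, Fcnb, a product of myeloid cells, was dim at 7.50 and 7.53.

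Mbl2, which encodes mannose-binding lectin C, read 10.81, 10.61, 10.64 and 10.16 on chow and 10.61, 11.22, 10.97 and 11.16 on HFD arrays. HFD 10, 11 and 12 lay above every chow array, and HFD 8 did not. The difference of 0.44 (SE 0.171, interval 0.04 to 0.83) did not pass over all genes (adjusted p = 0.285). Without HFD 8 it was 0.57 and without chow 5 it was 0.31.

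Masp2, the protease that cleaves C4 and C2 on bound lectins, had a mean of 10.45 in both diets, with a difference of 0.01 (interval -0.30 to 0.31). The sign of that difference turned without chow 5, HFD 10 or HFD 12. Its other 3 probes differed by 0.12 to 0.18. Masp1, Mbl1, Colec10 and Colec11 were dim and differed by -0.01 to 0.08, so a change in their RNA could hardly be seen here.

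C3, the component on which all routes converge, and factor B, the protease of the alternative convertase, did not pass. C3 read 12.99 to 13.24 on chow and 12.97 to 13.39 on HFD arrays, a difference of 0.04 (interval -0.18 to 0.26, adjusted p = 0.922). Cfb read 10.23 to 10.54 on chow and 10.20 to 10.58 on HFD arrays, a difference of 0.00 (interval -0.22 to 0.23, adjusted p = 0.995). The signs of both turned when single arrays were left out.

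Cfp, which encodes properdin, the stabiliser of the alternative convertase, read 9.73, 9.45, 9.44 and 8.74 on chow and 8.13, 8.60, 8.59 and 8.72 on HFD arrays. The groups did not overlap, though chow 5 lay close to HFD 12. The difference of -0.83 (SE 0.216, interval -1.33 to -0.33) missed the threshold (adjusted p = 0.0918). It passed without chow 5 (-1.03, adjusted p = 0.0132), with array weights (adjusted p = 0.0299), with trend and robust settings (0.0417) and among bright probes alone (0.0354). It did not pass under the other alternatives, with an adjusted p of up to 0.217. Of 21 macrophage markers 7 were lower on the same HFD arrays, and the part of macrophages was not tested.

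**Figure D2:**
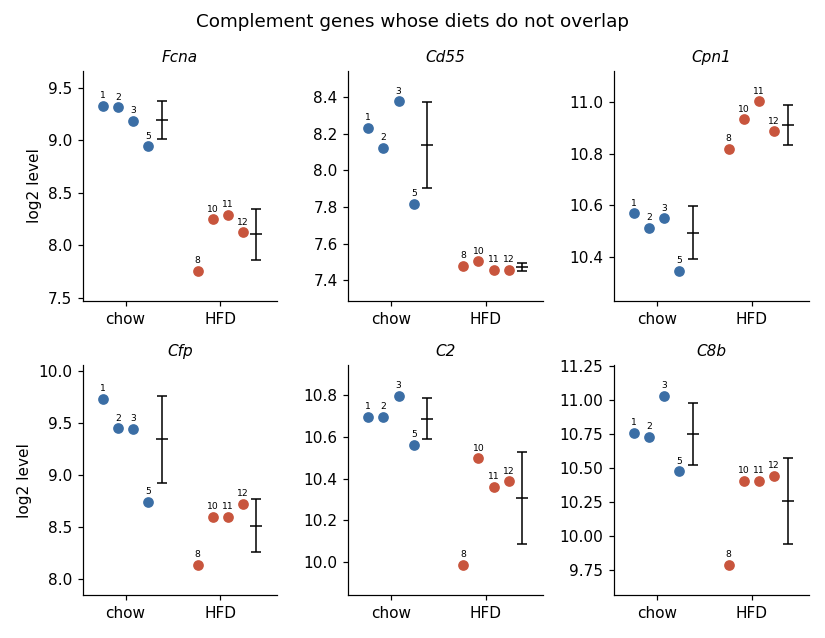
Log2 levels of the 6 complement genes whose 4 HFD arrays all lie on 1 side of the 4 chow arrays. Points are single arrays labelled by number, and bars are means ± SD (n = 4). Fcna, Cd55, Cfp, C2 and C8b are lower and Cpn1 is higher on HFD arrays, and the vertical scales differ and do not start at 0.

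The terminal pathway showed no call among 6 genes by limma, all of them bright, and 2 (33.3%) had an unadjusted p under 0.05, as had 28.7% of all bright genes. All 6 differences were negative, from -0.49 to -0.10, with a median of -0.32, beside -0.01 for all bright genes. That median was -0.16 without HFD 8, where Hc turned to 0.04, -0.23 without chow 3 and -0.47 without chow 5. C8b, which encodes the beta chain of C8, read 10.76, 10.73, 11.04 and 10.48 on chow and 9.79, 10.41, 10.41 and 10.45 on HFD arrays. Its groups did not overlap, and its difference was -0.49 (SE 0.171, adjusted p = 0.216). C8g, the gene of the C8 gamma chain, read 11.80, 11.60, 11.85 and 11.22 on chow and 10.74, 11.32, 11.23 and 11.41 on HFD arrays, a difference of -0.44 (adjusted p = 0.314). Its groups overlapped because chow 5 lay below 3 of the HFD arrays. C8a, the alpha chain gene, differed by -0.15 (adjusted p = 0.754), C6 by -0.21 and Hc, which encodes C5, by -0.10. Without chow 3 these were -0.03 for C8a, -0.10 for C6 and -0.02 for Hc, without HFD 8 C8a was -0.06 and C6 -0.14, and without chow 5 C8a was -0.25 and C6 -0.36.

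C9, which polymerises into the pore, read 10.65, 10.69, 10.70 and 10.00 on chow and 9.37, 10.31, 10.33 and 10.34 on HFD arrays. In each diet 1 array lay far below the other 3, chow 5 and HFD 8. The difference of -0.42 (SE 0.257, adjusted p = 0.573) became -0.18 without HFD 8 and -0.59 without chow 5. The other C9 probes gave -0.38 and, for a dim one, -0.02.

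The same arrays recurred across the terminal genes. HFD 8 was the lowest HFD array and chow 5 the lowest chow array in all 6, and chow 3 was the highest chow array in all 6. Over the 21 bright complement genes HFD 8 was the lowest HFD array in 19 (90.5%), where it was the lowest for 27.2% of all bright genes. Chow 5 was the lowest chow array in 16 (76.2%), against 30.2% of all bright genes. Chow 3 was the highest chow array in 13 (61.9%), close to its 60.2% over all bright genes. Genes on an array share that array, so these shares describe the arrays and carry no test.

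**Figure D3:**
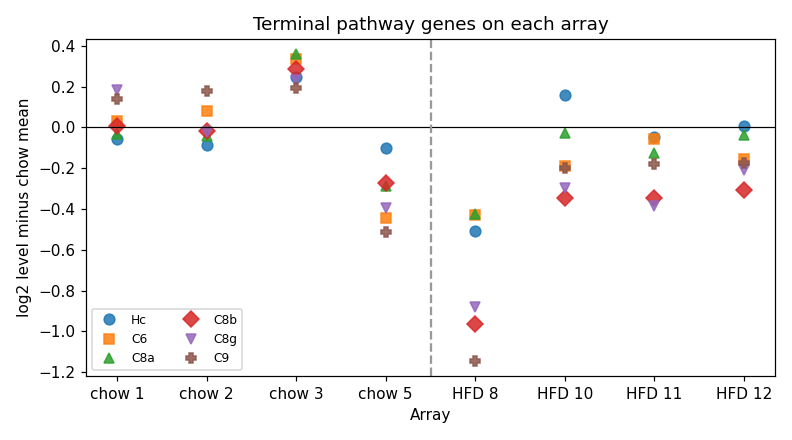
Log2 level of the 6 terminal pathway genes on each array, minus that gene's chow mean, with 1 symbol per gene and the diets divided by the dashed line. All 6 genes are lowest on chow 5 among chow arrays and lowest on HFD 8 among HFD arrays.

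Among 8 measured regulators 1 rose and 1 fell. Cpn1 encodes the catalytic subunit of carboxypeptidase N, a plasma enzyme that inactivates C3a and C5a by removing their terminal arginine. It read 10.569, 10.512, 10.549 and 10.346 on chow and 10.820, 10.934, 11.004 and 10.887 on HFD arrays, all HFD arrays above all chow arrays. Its mean of 10.49 ± 0.10 in chow rose to 10.91 ± 0.08 in HFD cells, 1.34-fold higher, with a log2 difference of 0.42 (SE 0.059, interval 0.28 to 0.55, adjusted p = 0.00836). The call held under every alternative run, with an adjusted p of at most 0.0361. Its other probes gave 0.56 and, for a dim one, 0.03. Cpn2, which encodes the regulatory subunit of the same enzyme, was dim at 7.56 and 7.57.

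Cd55, or decay-accelerating factor, is a membrane protein that dissociates C3 and C5 convertases on host cells. It read 8.23, 8.12, 8.38 and 7.82 on chow and 7.48, 7.50, 7.46 and 7.46 on HFD arrays. The chow arrays lay above the probe median and the HFD arrays at it or just below it. Its mean of 8.14 ± 0.24 in chow fell to 7.47 ± 0.02 in HFD cells, with a log2 difference of -0.66 (SE 0.105, interval -0.91 to -0.42, adjusted p = 0.0131), and 1.58-fold understates the change at such a level. The call was lost without HFD 12 (adjusted p = 0.0507), with the difference still -0.66. Cd55 is also carried by leukocytes and endothelial cells. On the same arrays 7 of 21 macrophage, 1 of 10 neutrophil and 4 of 12 sinusoidal endothelial markers fell and 0 rose. The part of these cells was not tested.

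C4bp, which encodes the C4b-binding protein, a cofactor for destroying C4b, read 9.65, 9.68, 9.70 and 9.33 on chow and 9.66, 10.35, 10.14 and 10.17 on HFD arrays. HFD 8 lay among the chow arrays and the other 3 HFD arrays above them. The difference was 0.49 (SE 0.150, interval 0.14 to 0.84, adjusted p = 0.153). Without HFD 8 it was 0.63 and passed (adjusted p = 0.0299), which makes 2 genes higher in that setting, where 1.06% of all genes were higher. Its second, dim probe differed by 0.11. Cfi, the protease factor I that cleaves C3b and C4b, differed by 0.17 (interval -0.04 to 0.39, adjusted p = 0.495).

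Vtn, which encodes vitronectin, an inhibitor of membrane insertion by the terminal complex, read 12.73 to 12.89 on chow and 12.35 to 12.79 on HFD arrays. The difference was -0.23 (SE 0.090, adjusted p = 0.302), or -0.14 without HFD 8. Cd59a, which blocks the polymerisation of C9 on host membranes, differed by 0.12 (interval -0.08 to 0.31), or 0.04 without chow 5. Cd46, a membrane cofactor whose expression in mice is largely confined to testis, was dim, as were both anaphylatoxin receptor genes, C3ar1 and C5ar1, at 7.45 to 7.48 in either diet.

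**Figure D4:**
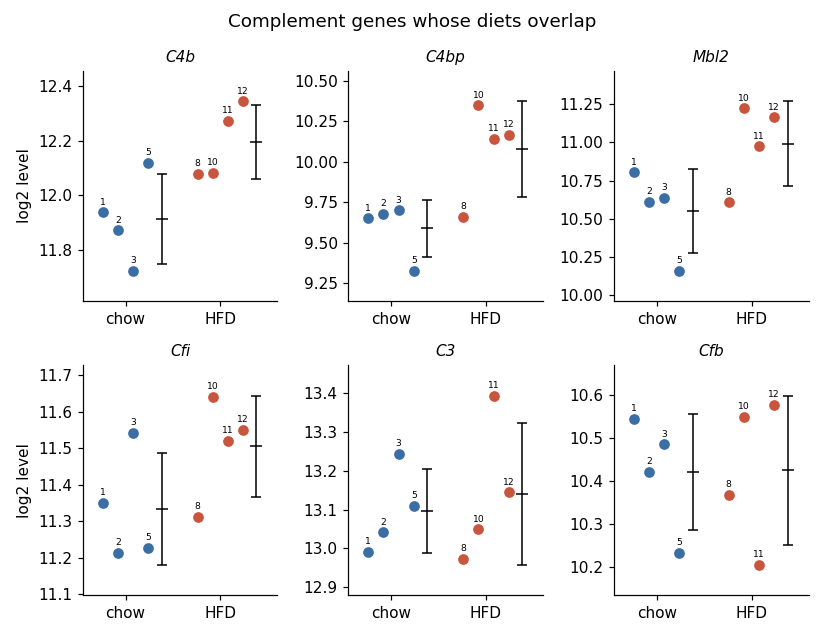
Log2 levels of 6 complement genes whose diets overlap, with single arrays as numbered points and means ± SD (n = 4). HFD 8 lies below the other 3 HFD arrays for C4bp, Mbl2, Cfi and C3, and the vertical scales differ and do not start at 0.

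The pentraxins are pattern-recognition proteins that can start the classical route. Apcs, which encodes serum amyloid P, an acute phase protein of mice, read 9.18, 8.96, 9.37 and 9.25 on chow and 8.34, 9.12, 8.78 and 8.81 on HFD arrays, a difference of -0.43 (SE 0.159, adjusted p = 0.255). HFD 10 lay within the chow range and the other 3 HFD arrays below it. Crp differed by -0.19 (interval -0.48 to 0.10, adjusted p = 0.610), or -0.09 without HFD 8.

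Of 28 other complement genes 24 had a probe, 10 of them bright. In this list 2 fell and 0 rose, where 2.57% of all genes fell and 1.47% rose. Among all bright genes 9.60% were called. The median difference of the list was -0.02, beside 0.00 for all genes. Cd93, a receptor of endothelial and myeloid cells once described as a C1q receptor, had a mean of 9.16 ± 0.01 in chow and fell to 7.97 ± 0.08 in HFD cells, by 1.19 on the log2 scale (SE 0.042, adjusted p = 7.04e-06). C1qb, which encodes the B chain of C1q, a product of macrophages, read 9.260, 9.182, 9.539 and 8.998 on chow and 7.833, 8.602, 8.581 and 8.490 on HFD arrays, and fell by 0.87 (SE 0.188, adjusted p = 0.0450). That call was lost when any array but chow 3 or HFD 8 was left out, with an adjusted p of up to 0.108. The chains C1qc (-0.67, adjusted p = 0.0834) and C1qa (-0.25, adjusted p = 0.536) had negative differences that passed without the third chow array, at -0.76 (adjusted p = 0.0178) and -0.40 (adjusted p = 0.00397). In that setting 4 genes of this list fell and 1 rose, C1rl, a C1r-like protease (0.25, adjusted p = 0.0231). Of all genes 4.34% fell and 4.84% rose there. C1qa, C1qc and C1rl were named after their values were seen.

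Of 21 macrophage markers 7 fell on the same arrays and 0 rose, where 2.57% of all genes fell and 1.47% rose. Fcer1g (-1.84, adjusted p = 0.000283), Laptm5 (-1.46), Adgre1 (-1.11) and Cd68 (-1.05) fell, and the median over 21 markers was -0.47. Averaged over all its probes Adgre1 still fell, by 0.69 on the log2 scale. Clec4f, a defining Kupffer cell marker, was dim and did not pass, with a difference of 0.12. Vsig4, Itgam and Itgb2 are on both lists. Of 12 sinusoidal endothelial markers 4 fell and 0 rose, Fcgr2b, Lyve1, Cdh5 and Stab2. The values of all 12, summed after undoing the log2, gave 3646 to 4388 on chow and 2962 to 3229 on HFD arrays. Without chow 3 there were 7 lower and 1 higher, Clec4g, named after its value was seen (0.33, adjusted p = 0.00769), and 2 or 3 lower when any other array was left out. Cdh5 and Stab2 lost the call in most of those settings, with an adjusted p of up to 0.125 and 0.0875, and Fcgr2b averaged over its probes was at -0.40, still past the threshold. Of 12 stellate cell markers 2 fell (Sparc and Bgn), of 10 neutrophil markers 1 fell (S100a8), and of 6 adipocyte markers none passed by limma, with 1 at an unadjusted p under 0.05. Bgn lost the call without any 1 of 6 arrays (adjusted p of up to 0.121). The 2 adipocyte markers with the smallest p were Cidec (-0.22, adjusted p = 0.208) and Fabp4 (-0.06, adjusted p = 0.592), and Cidec passed without chow 3 (-0.27, adjusted p = 0.0471). On these lists 11 macrophage, 6 sinusoidal endothelial, 11 stellate, all 10 neutrophil and all 6 adipocyte markers were dim.

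**Figure D5:**
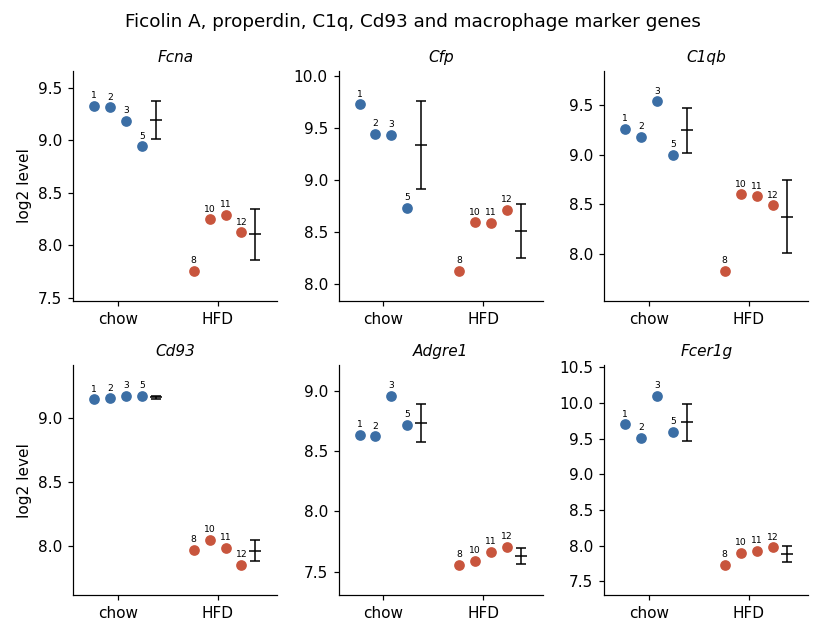
Log2 levels of Fcna and Cfp beside C1qb, Cd93 and the macrophage markers Adgre1 and Fcer1g, with single arrays as numbered points and means ± SD (n = 4). In all 6 panels the HFD arrays lie below the chow arrays, and the vertical scales differ and do not start at 0. Adgre1 and Fcer1g are among the markers with the largest differences. The diets did not overlap for 11 of the 21 macrophage markers, against 10.7% of all genes. Not shown are Clec4f, which differed by 0.12, and C1qa, whose groups overlapped, at -0.25.

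Of 20 genes of factors known to act on liver complement and acute phase transcription 18 were measured, 13 of them bright. In this list 2 rose and 1 fell, where 1.47% of all genes rose and 2.57% fell. Among all bright genes 9.60% were called. By limma 5 of the 18 (27.8%) had an unadjusted p under 0.05, against 14.1% of all genes and 28.7% of bright genes. The median difference of the list was -0.03, beside 0.00 for all genes. Nr1h4, the bile acid receptor FXR, read 10.76, 10.46, 10.74 and 10.86 on chow and 9.77, 9.83, 10.01 and 9.85 on HFD arrays and fell by 0.84 (SE 0.089, adjusted p = 0.00205). That call held under every alternative, with an adjusted p of at most 0.0124. Irf1, an interferon-induced transcription factor, rose by 0.46 (adjusted p = 0.0389), and Nr1i2, the xenobiotic receptor PXR, rose by 0.43 (adjusted p = 0.0206). Irf1 and Nr1i2 each lost the call when several single arrays were left out, with an adjusted p of up to 0.124 and 0.0761. Without chow 1, chow 2, HFD 10 or HFD 12 neither was called. Averaged over its probes Irf1 differed by 0.16 (adjusted p = 0.167).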

How the data were processed

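RNA of 8 primary hepatocyte cultures, 4 per diet, was measured on single-channel Illumina arrays. The deposited table holds log2 values of 45281 probes, made by the authors with lumi per the submitters' processing notes, of which the version and settings are not stated there. Each array ran from 7.23 to 14.91 and sorted values differed from their mean over arrays by at most 0.0026, so the values were not normalized again. Whether the scale is plain or variance-stabilised log2 is unknown, and no detection p-values were used. The number of arrays limits the precision. No column was left unused (0).

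Probes were named from the platform annotation (35784 with 1 symbol, 0 with several, 9497 with none), updated through a GRCm38.p6 gene table. HFD was compared with chow over all 8 arrays in limma 3.58.1 (R 4.3.3, lmFit and eBayes, 2-sided, threshold 0.05), checked on simulated data; figures used matplotlib 3.10.9. All members are named; from each of 8 other lists up to 4 genes with the largest difference among those that passed, or 2 by p where none passed, with defining markers and exceptions marked where they occur. The members and lists were chosen with earlier results of these data known. Alternatives were leaving out each array, repeated quantile normalization, centring on bright probes, dropping dim probes, probe means, trend and robust settings, and array weights.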

Additional observations from a re-analysis of the deposited data

Results flagged for a closer look

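A single array lay far from the other 3 of its diet in 7 of 68 gene and diet groups examined. The rule used flags about 1 in 20 groups of independent values. No share over all genes was taken, and genes on an array share that array, so the count carries no test. On HFD 8, C8b read 9.79 while the other HFD arrays read 10.41 to 10.45, and C9 read 9.37 while the others read 10.31 to 10.34. On chow 5, C9 read 10.00 (others 10.65 to 10.70), C4bp 9.33 (others 9.65 to 9.70), Cd59a 10.12 (others 10.41 to 10.46) and Vtn 12.73 (others 12.87 to 12.89), each the low value of its diet. On chow 3, Hc read 9.36, above the other chow arrays at 9.01 to 9.05.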

How the results depend on the processing

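Leaving out single arrays gave 1 to 2 complement genes higher and 1 to 3 lower, 1 to 5 other complement genes called, 1 to 3 regulator genes called, and 447 to 1861 of all genes called. Array weights, which gave chow 3 a weight of 0.192, called 1603 genes in all and 5 other complement genes. Of 476 values of the 33 genes under the alternatives, 440 kept their direction and side of the threshold. Among 11 genes with a difference of at most 0.10 in size the sign turned. Leaving out single arrays gave -0.05 to 0.04 for C1ra, -0.04 to 0.0021 for C1rb, -0.10 to 0.11 for Masp2, -0.03 to 0.08 for Mbl1, -0.04 to 0.03 for Colec11, -0.04 to 0.10 for C3, -0.06 to 0.08 for Cfb, -0.18 to 0.04 for Hc, -0.01 to 0.03 for Cpn2, -0.01 to 0.04 for C3ar1 and -0.0033 to 0.02 for C5ar1. With array weights C1ra was at 0.05, C1rb at 0.0042 and Colec11 at 0.02. The cause was not tested. No paired analysis was possible because the diets share no array numbers. Dim probes (12 of the 33 genes) limit what could be seen.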
